A study of Rattus norvegicus with 22 samples.

Results

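The cell division genes are 40 genes named for their textbook roles in the cell cycle. The rule uses no measured value, although the list was drawn up with results of these data known. They were looked up by symbol, after the Entrez identifiers of the count and TPM tables were mapped to rat symbols. By symbol, 39 of the 40 were among the 17334 genes of these tables, and 155 of the 17334 had no symbol. The expression of Cenpe, the centromere kinesin, was not analysed here, and its promoter was. They were divided by role into 6 genes of entry from G1, 13 genes of S phase and 20 genes of G2 and mitosis (21 with Cenpe). All 39 passed the filter on low counts, which left 12867 genes for testing.

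The samples were left kidneys of 22 male PKD/Mhm (Cy/+) rats, heterozygotes for a dominant mutation that causes cystic kidney disease, taken at the age of 8 months. The untreated group (6 rats, Control in the labels) was compared with 6 rats given i.p. ASC, 6 rats given i.v. ASC and 4 rats given CM, the medium conditioned by those cells. ASC are human adipose-derived stromal cells, so the injected cells were foreign to the rats, and treatment was given monthly over 6 months. Every rat of every group carried the cystic genotype, which had been recognised by palpation of the abdomen, and no non-cystic kidney was analysed here. The route of the CM is given as intraperitoneal in the series text and as intravenous in the study's methods. The RNA came from bulk tissue, in which fewer cells of a type and less RNA per cell cannot be told apart.

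A cell leaves G1 when cyclin D with Cdk4 or Cdk6, and then cyclin E with Cdk2, release E2F factors from the retinoblastoma protein, and E2F then turns on the genes that load the replicative helicase and supply nucleotides. Many genes of G2 and mitosis carry CHR and CCAAT elements in their promoters, and they are switched on later by the MuvB complex with B-Myb and FoxM1. In the adult kidney few cells divide, whereas the epithelium that lines the cysts of polycystic kidneys is known for continued proliferation.

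The promoters are shown first because their letters differ between the S-phase and the mitotic list, the line along which the expression values were then read. RefSeq windows of the GRCr8 build, running from 250 bases before to 50 bases after each start, were matched for 30 of the 40 genes. Those without one were Ccnd1, Cdk6, E2f1, Mcm4, Cdc6, Rrm2, Foxm1, Ccna2, Aurkb and Ube2c. The E2F letters searched were TTTCCCGC, TTTCGCGC, TTTGCCGC and TTTGGCGC, the CHR letters were TTTGAA and the CCAAT box was CCAAT, each on both strands. Because GCGC reads the same on both strands, 2 E2F matches can overlap. Below, the 150 bases before the start are given 5′ to 3′ on the gene's strand, with every match in capitals.
Mcm5 (GRCr8 chr19:13488663-13488812, plus strand): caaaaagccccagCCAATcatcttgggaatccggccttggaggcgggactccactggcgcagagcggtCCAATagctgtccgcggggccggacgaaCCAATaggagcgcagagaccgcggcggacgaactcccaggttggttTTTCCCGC
Mcm6 (GRCr8 chr13:42404353-42404502, minus strand): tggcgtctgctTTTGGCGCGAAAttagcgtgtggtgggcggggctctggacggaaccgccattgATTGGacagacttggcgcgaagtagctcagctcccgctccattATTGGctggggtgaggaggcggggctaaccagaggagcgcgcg
Ccnb2 (GRCr8 chr8:79981659-79981808, minus strand): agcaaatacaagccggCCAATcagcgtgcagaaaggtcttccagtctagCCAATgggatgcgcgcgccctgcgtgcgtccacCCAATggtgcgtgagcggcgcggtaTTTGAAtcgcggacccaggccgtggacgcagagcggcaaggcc
Cdc20 (GRCr8 chr5:137255800-137255949, minus strand): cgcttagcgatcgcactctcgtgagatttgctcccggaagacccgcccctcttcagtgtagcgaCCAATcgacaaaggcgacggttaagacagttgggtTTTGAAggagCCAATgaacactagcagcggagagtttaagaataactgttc
Top2a (GRCr8 chr10:84473094-84473243, minus strand): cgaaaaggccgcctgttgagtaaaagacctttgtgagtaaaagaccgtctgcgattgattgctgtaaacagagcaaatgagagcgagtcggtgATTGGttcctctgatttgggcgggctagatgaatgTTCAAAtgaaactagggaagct
Cdk1 (GRCr8 chr20:19265143-19265292, plus strand): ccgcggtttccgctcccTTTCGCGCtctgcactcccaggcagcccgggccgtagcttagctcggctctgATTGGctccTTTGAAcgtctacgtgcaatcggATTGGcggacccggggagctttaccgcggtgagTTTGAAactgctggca
Kif11 (GRCr8 chr1:244536717-244536866, plus strand): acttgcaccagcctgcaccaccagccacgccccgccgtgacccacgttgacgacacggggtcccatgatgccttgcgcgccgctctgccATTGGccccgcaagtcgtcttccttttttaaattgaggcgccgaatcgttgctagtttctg

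E2F letters were found in 8 of the 10 S-phase windows and in 1 of the 17 mitotic windows, that of Cdk1, against 2.14% of all 33469 windows. CHR letters were found in 11 of the 17 mitotic windows and in 1 of the 10 S-phase windows, that of Mcm2, against 18.3% of all windows. CCAAT was found in 14 of the 17 mitotic and 6 of the 10 S-phase windows, against 37.5% of all. Among further division genes listed by role and read last below, E2F letters were in 14 of 32 S-phase and 1 of 42 mitotic windows. There CHR letters were in 27 of 42 mitotic and 6 of 32 S-phase windows. The windows of Mcm5 and Mcm6, subunits of the helicase, carry E2F letters and no CHR, while those of Ccnb2 (cyclin B2), Cdc20 (the activator of the anaphase-promoting complex) and Top2a (topoisomerase II alpha) carry CHR letters and no E2F. Cdk1, the mitotic kinase, holds both, and Kif11, the kinesin that pushes the spindle poles apart, holds neither. The mitotic windows of Ccnb1, Cenpe, Kif20a, Aurka and Bub1 also hold neither E2F nor CHR letters, so this does not set Kif11 apart. A match is a description of letters, not a bound site, and a window without one says only that these letters are not in it.

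The total count per rat lay between 12195682 and 14734772, and the counts of any pair of rats correlated with a Spearman coefficient of at least 0.97. The libraries fell into 2 sets of 11 by the effective transcript length that links counts to TPM, with 3 rats of each group of 6 and 2 of the CM rats in each set. The labels give no name for these sets. Between them edgeR's quasi-likelihood test called 0 of 12867 genes at an adjusted p under 0.05 and 454 at an unadjusted p under 0.05, of which 1 was a member (Cdc6). The kidney was recognisable in every rat, with a summed TPM of the 8 proximal tubule markers from 876 to 3348. Urothelial markers (6 of 7 in the tables, with Upk2, Upk3a, Krt5 and Krt20 at 0 in some rats of every group) summed to between 2.48 and 545 TPM in the i.v. ASC group, and to at most 16.7 TPM in any rat of the other groups. The edgeR fit for i.v. ASC was therefore repeated without the 4 rats in which their mean was highest (rats 3, 9, 10 and 13).

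Levels are given as TPM, which corrects for transcript length. On the TPM scale, limma's log2 fold changes against the untreated group were below 0 for most of the genes tested. The shares were 76.7% after i.p. ASC, 76.6% after i.v. ASC and 69.4% after CM on log2(TPM + 1). Lower TPM medians of treated groups below are to be read beside these shares. The mitotic genes were the scarcest of the 3 lists. The median member of the G1 and S-phase lists had a mean of 9.75 and 9.67 TPM, and the median mitotic member 3.91 TPM. Cdk4 was the most abundant member at a mean of 160 TPM, above 92.3% of all genes tested, followed by Ccnd1 (cyclin D1) at 104 TPM and Pcna, the sliding clamp of DNA polymerase, at 89.3 TPM. At the other end stood the spindle checkpoint kinases Bub1b at 1.01 TPM and Ttk at 1.03 TPM, which lay within each other's spread over rats. Mean estimated counts ran from 26.3 for Cenpa, the centromeric histone, to 4027 for Ccnd1. The spread over the 22 rats had a median coefficient of variation of 18.5% for G1, 18.6% for S-phase and 23.4% for mitotic members, against 8.49%, 6.10% and 11.01% allowed by counting alone.

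In the G1 list, Ccnd1, which starts the cycle in response to growth signals, ranged from 81.9 to 120 TPM (median 105) in the untreated rats, from 69.7 to 135 (91.4) after i.p. ASC, from 98.2 to 144 (111) after i.v. ASC, and was 110, 100, 104 and 103 TPM in CM rats 2, 11, 19 and 21. The groups overlapped, and the highest value belonged to i.v. ASC rat 3. Its partner Cdk4 ranged from 162 to 189 TPM (median 173) in the untreated rats, from 132 to 180 (154) after i.p. ASC, from 131 to 181 (160) after i.v. ASC, and was 123, 146, 162 and 172 TPM in the CM rats. The lowest Cdk4 value of all belonged to CM rat 2, and 3 of the 4 CM rats lay under the lowest untreated rat, the third by less than 1 TPM. Cdk6, the sister kinase, was scarcer, at 5.65 to 9.06 TPM (median 6.99) without treatment, 3.89 to 8.18 (5.48) after i.p. ASC, 4.38 to 7.41 (5.59) after i.v. ASC, and 5.86, 6.86, 5.98 and 6.83 TPM after CM. All 3 treated groups overlapped with the untreated rats. Cdk2, which cyclin E activates, was the steadiest member, with a coefficient of variation of 6.89% and a range from 10.01 to 15.9 TPM over all rats. Ccne1 (cyclin E1) was near 2 TPM and uneven, from 0.780 TPM in i.v. ASC rat 3 to 3.16 TPM in i.v. ASC rat 14. E2f1, the transcription factor that closes this step, ranged from 1.29 TPM in i.p. ASC rat 7 to 4.34 TPM in untreated rat 1.

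In the S-phase list, the helicase subunits Mcm2 to Mcm7 had means from 6.16 TPM (Mcm5) to 32.3 TPM (Mcm7). Mcm5 ranged from 4.89 to 8.81 TPM (median 6.36) in the untreated rats, from 4.05 to 7.29 (6.09) after i.p. ASC, from 3.84 to 9.64 (5.90) after i.v. ASC, and was 3.15, 6.55, 7.95 and 7.12 TPM in the CM rats. CM rat 2 stood below every other rat. Mcm2 was steadier, from 10.3 to 18.4 TPM over all rats, with group medians of 15.5, 13.7, 12.7 and 14.1 TPM in the order untreated, i.p. ASC, i.v. ASC and CM. The loading factors Cdc6 and Cdt1, which bring the helicase to origins, had means of 5.39 and 2.62 TPM. Cdt1 went from 1.19 TPM in CM rat 2 to 3.67 TPM, and Cdc6 from 3.08 TPM in i.p. ASC rat 5 to 8.79 TPM in i.v. ASC rat 9. Rrm2, the cell-cycle-regulated subunit of ribonucleotide reductase, ranged from 8.43 to 15.8 TPM (median 9.65) without treatment, from 5.11 to 13.8 (10.3) after i.p. ASC, from 5.68 to 15.1 (8.76) after i.v. ASC, and was 4.73, 10.1, 12.2 and 8.65 TPM after CM. Tyms, which makes thymidylate, ranged from 13.6 to 23.7 TPM (median 18.6), from 10.3 to 22.7 (15.2), from 10.8 to 18.6 (13.4), and was 10.03, 13.5, 18.6 and 18.5 TPM in the same order. All groups overlapped for both, with the lowest value in CM rat 2 in each case.

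In the mitotic list, Mki67, whose product is the antigen counted as Ki-67, ranged from 1.96 to 3.79 TPM (median 2.92) in the untreated rats, from 1.45 to 3.25 (2.49) after i.p. ASC, from 1.68 to 3.82 (2.35) after i.v. ASC, and was 1.81, 3.75, 3.81 and 2.26 TPM in the CM rats. The 4 groups overlapped. Cdk1, the kinase that drives entry into mitosis, ranged from 5.61 to 12.3 TPM (median 9.36) without treatment, from 3.997 to 10.2 (9.43) after i.p. ASC, from 7.25 to 11.2 (9.57) after i.v. ASC, and was 5.27, 11.2, 9.17 and 9.73 TPM after CM. Its cyclins Ccna2 and Ccnb1 had means of 4.26 and 6.60 TPM, and their group medians lay between 3.78 and 4.67 TPM and between 5.98 and 6.81 TPM. Top2a, which untangles sister chromosomes, ranged from 2.16 to 5.51 TPM (median 3.07) without treatment, from 1.67 to 4.55 (3.67) after i.p. ASC, from 1.83 to 5.41 (3.18) after i.v. ASC, and was 2.29, 4.35, 5.12 and 3.10 TPM after CM. For Cdk1 and Top2a the groups overlapped, and i.p. ASC rat 7 held the lowest value of the 22 rats. Foxm1, the activator of the mitotic genes, varied little (2.37 to 4.35 TPM). The kinases Plk1, Aurkb and Bub1 had means of 3.20, 3.55 and 1.72 TPM, and Birc5 (survivin), the partner of Aurkb, 8.51 TPM, again with group ranges that overlapped.

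**Figure D1:**
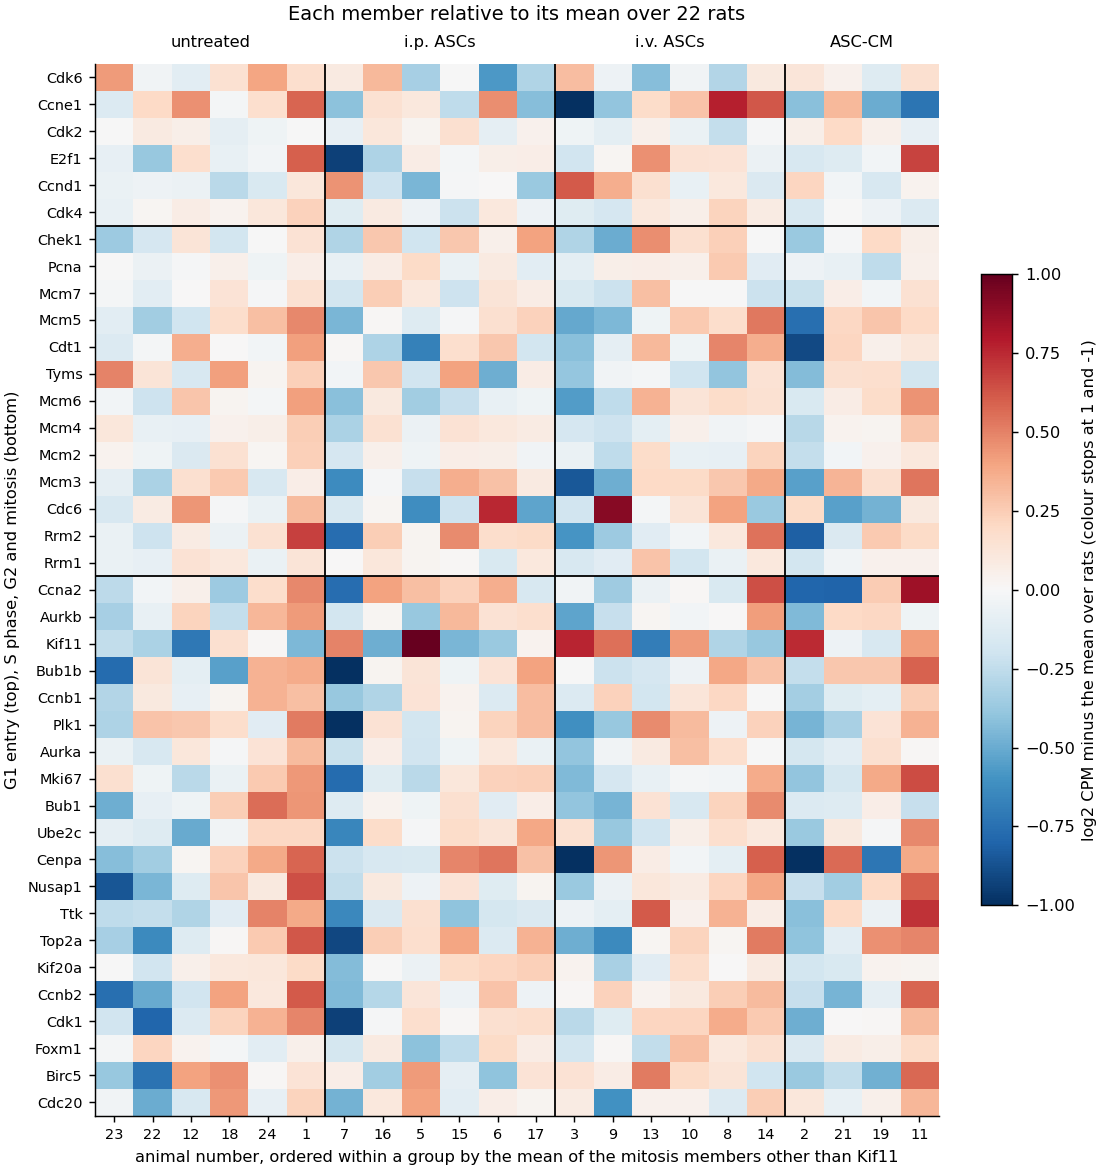
Each row is 1 of the 39 genes and each column 1 rat, named by its animal number and ordered within its group by the mean of the mitotic members other than Kif11. The colour is log2 CPM minus the gene's mean over the 22 rats, red for higher and blue for lower, with colours stopping at 1 and -1. Most S-phase and mitotic rows turn from blue to red together within each group, a turn that the column order itself favours for the mitotic rows. The Kif11 row does not share this turn (r = -0.34 with the mean of the other mitotic members over the 22 rats).

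Whether the treatments altered the division programme was asked of each gene first. After i.p. ASC, 0 of the 39 members passed edgeR's quasi-likelihood test at a Benjamini-Hochberg adjusted p under 0.05 over all 12867 genes, and 0% of all genes did. At an unadjusted p under 0.05 it found 0 of 39 members against 3.89% of all genes, and DESeq2 and limma on the TPM scale also called 0 members. Log2 fold changes were below 0 for 26 of 39 members, beside 53.8% of all genes. Their medians were -0.16 for the G1 list, -0.03 for the S-phase list and -0.05 for the mitotic list, beside -0.01 over all genes. The smallest unadjusted p belonged to Cdk6 with a log2 fold change of -0.29 (SE 0.15, 95% interval -0.61 to 0.03, edgeR adjusted p = 0.771), Mcm6 with -0.25 (SE 0.14, -0.55 to 0.05) and Cdk4 with -0.11 (SE 0.07, -0.25 to 0.04). All 39 intervals lay within 1 on the log2 scale, a 2-fold change in either direction, and 19 lay within 0.5. The narrowest were those of Cdk2 (-0.11 to 0.17) and Pcna (-0.11 to 0.16), and Cenpa had one of the widest (-0.62 to 0.71).

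After i.v. ASC, the same edgeR test passed 0 of 39 members and 0% of all genes after adjustment. At an unadjusted p under 0.05 it found 1 member, Tyms, against 8.81% of all genes. DESeq2 called 22 of all genes and limma on the TPM scale 0, with no member among them. Tyms had a log2 fold change of -0.35 (SE 0.15, 95% interval -0.66 to -0.03, unadjusted p = 0.0326, edgeR adjusted p = 0.523). Ccnd1 followed with 0.27 (SE 0.14, -0.02 to 0.56) and Cdk6 with -0.23 (SE 0.15, -0.55 to 0.09). Of the 39 log2 fold changes 22 were below 0, beside 52.5% of all genes, with medians of -0.04 for G1, -0.04 for S phase and -0.01 for mitosis. All 39 intervals lay within 1 on the log2 scale, and 20 within 0.5. Without the 4 rats with urothelial markers, which left 2 i.v. ASC rats, the medians were 0.02, 0.08 and 0.16. In that fit 0 members were called, and the log2 fold changes of Tyms and Cdk6 were -0.30 and -0.27. That of Ccnd1 was then 0.06, and those of Mki67 and Kif11 turned to 0.09 and -0.11.

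After CM, 0 of 39 members and 0% of all genes passed that edgeR test after adjustment. At an unadjusted p under 0.05 it found 0 members against 6.6% of all genes. DESeq2 called 5 of all genes and limma on the TPM scale 0, again with no member. The smallest unadjusted p belonged to Cdk4 with a log2 fold change of -0.16 (SE 0.08, 95% interval -0.32 to 0.01, edgeR adjusted p = 0.711), Ccne1 with -0.53 (SE 0.31, -1.18 to 0.11) and Kif11 with 0.52 (SE 0.31, -0.13 to 1.16). Log2 fold changes were below 0 for 23 of 39 members, beside 50.9% of all genes, with medians of -0.04, -0.06 and -0.01. All intervals but those of Kif11 and Ccne1 lay within 1 on the log2 scale, and 16 within 0.5. The 3 comparisons share the untreated rats, so their values are not independent of each other.

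**Figure D2:**
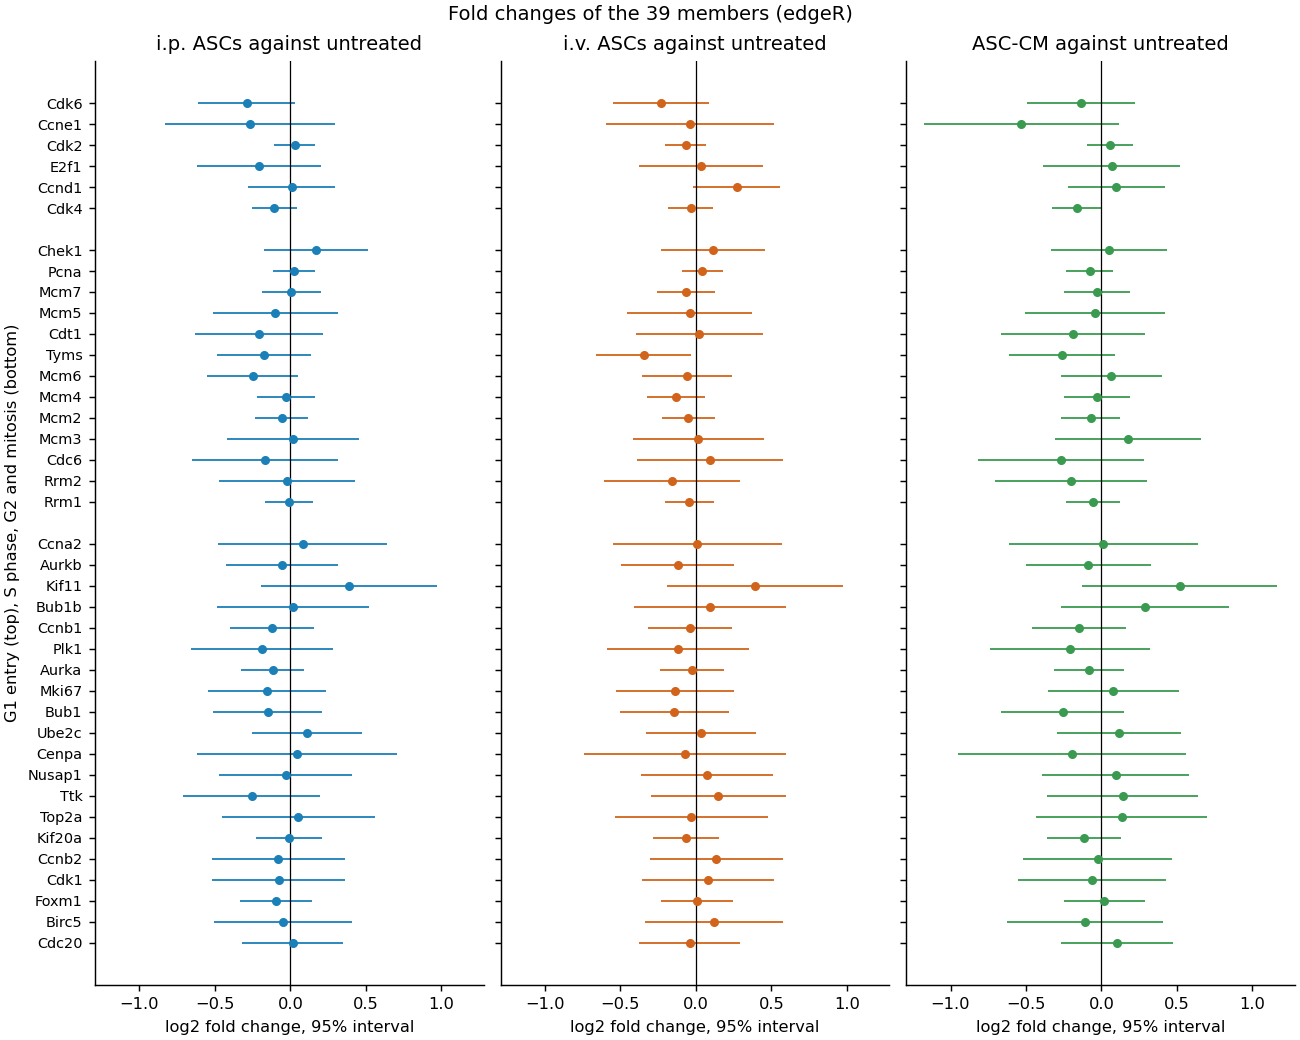
Points are edgeR log2 fold changes of the 39 genes against the untreated group, 1 panel a comparison, and bars are 95% intervals. All intervals cross 0 except that of Tyms after i.v. ASC, and Kif11 lies to the right in each panel (0.39, 0.39 and 0.52).

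Mki67 was also tested alone. In log2 CPM it averaged 4.45 ± 0.25 (SD, n = 6) without treatment, 4.28 ± 0.39 (SD, n = 6) after i.p. ASC, 4.31 ± 0.26 (SD, n = 6) after i.v. ASC and 4.49 ± 0.48 (SD, n = 4) after CM. The differences from the untreated group were -0.18 (two-sided exact permutation test, p = 0.385), -0.14 (exact permutation p = 0.374) and 0.04 (exact permutation p = 0.886), which became 0.578, 0.578 and 0.886 after Benjamini-Hochberg adjustment over the 3 exact permutation tests. Each difference was smaller than the spread between rats. The smallest p these designs allow is 0.00216 for 6 against 6 rats and 0.00476 for 4 against 6 in an exact permutation test. Within the 2 library sets the differences pointed both ways for i.p. ASC (0.20 and -0.55) and CM (0.36 and -0.29), and were -0.09 and -0.19 for i.v. ASC. Leaving out 1 rat moved the i.p. ASC difference between -0.25 (without untreated rat 12) and -0.04 (without i.p. ASC rat 7), and the i.v. ASC difference between -0.23 (without i.v. ASC rat 14) and -0.06 (without i.v. ASC rat 3). Without CM rat 11 the CM difference was -0.14.

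The members were then averaged within each list for every rat, as the mean of log2 CPM. The G1 mean was 4.45 ± 0.12 (SD, n = 6) in the untreated group, 4.31 ± 0.08 (SD, n = 6) after i.p. ASC, 4.42 ± 0.08 (SD, n = 6) after i.v. ASC and 4.35 ± 0.09 (SD, n = 4) after CM. The i.p. ASC mean was 0.146 below the untreated mean, with a pooled SD within groups of 0.095, and the values overlapped (4.21 to 4.41 against 4.34 to 4.67). Within the library sets that difference was -0.02 and -0.27. The S-phase mean was 4.34 ± 0.13, 4.27 ± 0.16, 4.28 ± 0.20 and 4.26 ± 0.23 in the same order of groups, and the mitotic mean 2.98 ± 0.25, 2.95 ± 0.22, 2.998 ± 0.16 and 2.98 ± 0.28. Treated minus untreated pointed both ways in the shorter and the longer library set after i.p. ASC, at 0.08 and -0.22 for S phase and 0.11 and -0.17 for mitosis, and after CM, at 0.07 and -0.24 for S phase and 0.23 and -0.22 for mitosis. The share of variance that lay between groups was 32.3% for the G1 mean over the 22 rats, 4.02% for the S-phase mean and 0.887% for the mitotic mean. Groups this small give a share above 0 even without a group effect. No p is given for these means, since the list was drawn up with results of these data known.

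**Figure D3:**
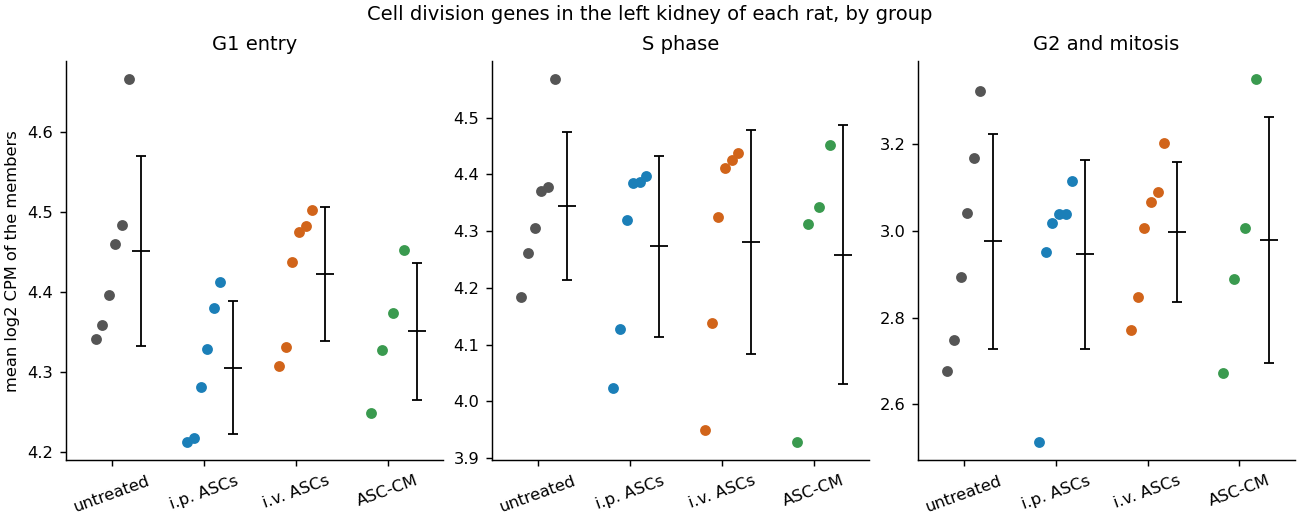
Each point is 1 rat, and the bars beside them are group means with SD. The vertical axis, drawn separately for each panel, is the mean log2 CPM of 6 G1, 13 S-phase and 20 mitotic members. The groups overlap in all 3 panels, and the mitotic means span 2.51 to 3.35 within them.

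S-phase and mitotic genes were compared directly through their difference in each rat. The mitotic mean lay below the S-phase mean in every rat, by between 1.09 and 1.58 on the log2 CPM scale, a scale that does not correct for transcript length. The mean of this difference was -1.37 ± 0.16 (SD, n = 6) in the untreated group, -1.33 ± 0.16 (SD, n = 6) after i.p. ASC, -1.28 ± 0.09 (SD, n = 6) after i.v. ASC and -1.28 ± 0.14 (SD, n = 4) after CM. Treated minus untreated came to 0.04, 0.08 and 0.09, each less than the pooled SD of 0.14. Leaving out 1 rat took the i.p. ASC value from -0.0066 (without i.p. ASC rat 5) to 0.088 (without untreated rat 24). It took the i.v. ASC value from 0.041 (without untreated rat 23) to 0.131 (without untreated rat 24), and the CM value from 0.030 (without CM rat 11) to 0.137 (without CM rat 21). Within the library sets these values were 0.03 and 0.05 for i.p. ASC, 0.14 and 0.02 for i.v. ASC, and 0.15 and 0.03 for CM.

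The rats differed among themselves much more than the groups, and they did so in both lists at once. The S-phase mean was lowest in CM rat 2 (3.93) and i.v. ASC rat 3 (3.95) and highest in untreated rat 1 (4.57). The mitotic mean was lowest in i.p. ASC rat 7 (2.51) and CM rat 2 (2.67) and highest in CM rat 11 (3.35) and untreated rat 1 (3.32). Across the 22 rats the lists correlated with a Pearson r of 0.77 and a Spearman rho of 0.69, described without a p because both come from the same libraries. With group means removed r was 0.79, without the 2 rats farthest from the median S-phase mean (rats 2 and 3) it was 0.75, and in the 2 library sets it was 0.75 and 0.79 (n = 11 each). Within groups r was 0.81 in the untreated rats, 0.70 after i.p. ASC and 0.88 after i.v. ASC (n = 6 each), and rho was 0.77, 0.31 and 0.60. The G1 mean followed the S-phase mean less closely (r = 0.61) and the mitotic mean less still (r = 0.46).

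Gene by gene, each member was set against the mean of the other members of each list, with Kif11 left out of the mitotic mean. Of the 20 mitotic members 16 had r of at least 0.5 with the other mitotic members, and 7 of the 13 S-phase members did so too, beside 7.78% of all genes. Cdk1 (r = 0.88), Top2a (0.87), Nusap1 (0.80), a microtubule-bundling spindle protein, and Mki67 (0.78) followed the mitotic mean most closely among the mitotic members. With the S-phase mean, 10 of 13 S-phase and 13 of 20 mitotic members reached 0.5, beside 19.3% of all genes. Mcm3 (r = 0.83), Rrm2 (0.82), Mcm5 (0.79) and Mcm6 (0.78) led the S-phase members, and Plk1 (0.81) and Aurka (0.79) the mitotic ones. Rrm2 and Mcm5, although S-phase genes, followed the mitotic mean (0.85 and 0.85) at least as closely as the S-phase mean. E2f1, of the G1 list, went with both (0.63 with S phase and 0.77 with mitosis).

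**Figure D4:**
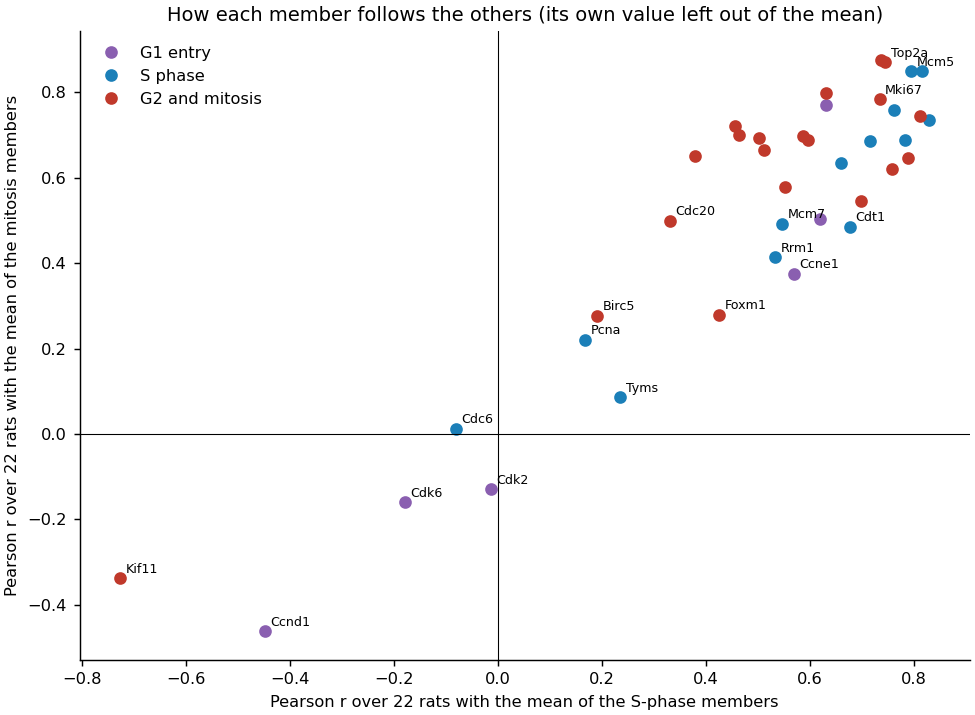
Each point is 1 gene, placed by its Pearson r over 22 rats with the mean of the S-phase members (horizontal) and of the mitotic members (vertical), with its own value and Kif11 left out of the means. Most S-phase and mitotic genes sit at the upper right, and Kif11 (-0.73 and -0.34) and Ccnd1 (-0.45 and -0.46) at the lower left.

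Some members stood outside this shared variation. Among S-phase genes, Cdc6 had r of -0.08 and 0.01 with the S-phase and mitotic means, Pcna 0.17 and 0.22, and Tyms 0.24 and 0.09. Pcna also serves DNA repair. In the G1 list Cdk2 (-0.01 and -0.13) and Cdk6 (-0.18 and -0.16) were unrelated to either mean. Among mitotic genes Birc5 (0.19 and 0.28) and Foxm1 (0.43 and 0.28) followed the mitotic mean least closely after Kif11. Of 10 marker lists, Cdc6 had its largest r with the mean of 6 collecting duct markers (r = 0.72, and 0.53 without rats 5 and 9). The corresponding rho was 0.54 and 0.38, beside 0.57 with injured tubule markers and -0.61 with erythroid markers over all rats. Ccnd1 had r of -0.45 and -0.46 with the S-phase and mitotic means, but rho of only -0.10 and -0.28. Of the 10 marker lists, Ccnd1 had its largest r with the urothelial markers (r = 0.64, and 0.32 without rats 3 and 9). In the shorter and longer library sets that r was 0.86 and 0.36. The corresponding rho was 0.43 and 0.26 without those 2 rats, beside 0.49 with collecting duct and -0.49 with podocyte markers over all rats. The part of any of these cell types in these values was not tested.

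Kif11 was the clearest exception. Its TPM ranged from 5.19 to 10.7 (median 8.19) in the untreated rats, from 6.36 to 17.5 (8.48) after i.p. ASC, from 5.78 to 14.1 (9.85) after i.v. ASC, and was 14.2, 11.6, 9.24 and 8.95 in CM rats 2, 11, 19 and 21. The 5 rats with the lowest S-phase means (rats 2, 3, 7, 5 and 9) had 14.2, 14.1, 12.4, 17.5 and 11.7 TPM. Among the other rats, rat 10 lay within this range at 12.5 TPM, and rat 11 just under it at 11.6 TPM. Its coefficient of variation of 37.6% was the largest of the 39 members, against 4.60% allowed by counting at a mean of 472 reads. Of 10 marker lists, it had its largest r with the proximal tubule marker mean (0.76, 0.69 without rats 3 and 13, and 0.61 and 0.89 in the library sets). Its r was -0.67 with macrophage, -0.65 with endothelial, -0.59 with fibroblast and -0.56 with podocyte markers. Of the 8 proximal tubule markers 5 had r of at least 0.7 with Kif11, beside 10.2% of all genes. The other 19 mitotic members together had r of -0.34 with Kif11. Of 11074 other genes with a mean count of at least 50, the one most like it was Pdzk1 (r = 0.94), a scaffold of the proximal tubule brush border, a gene picked out after its values were seen. Pex11a, a peroxisome protein, and Hnf4a, the transcription factor of proximal tubule cells, were also among the first 10 (0.94 and 0.94). The effective length behind its values stayed within 0.972 and 1.04 of its median, under it in the longer library set and over it in the shorter. Because this value followed the library sets, it does not show whether the transcripts used differed between rats.

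**Figure D5:**
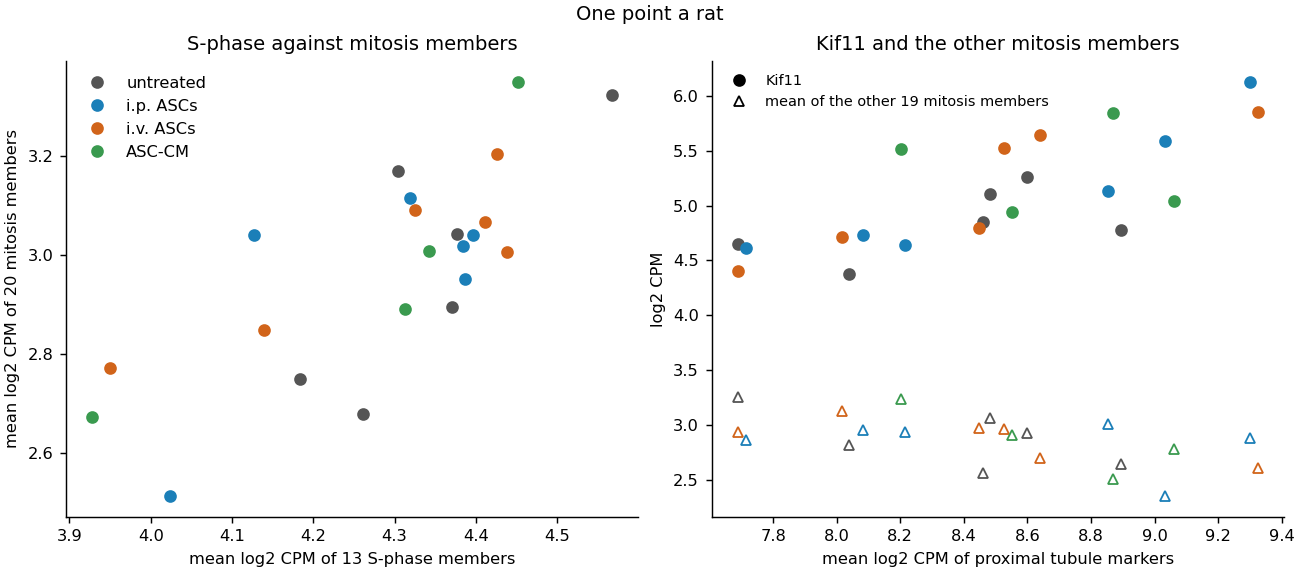
Left, the mean log2 CPM of 20 mitotic against 13 S-phase members, 1 point a rat, coloured by group (r = 0.77). Right, log2 CPM of Kif11 (filled circles) and the mean of the other 19 mitotic members (open triangles) against the mean log2 CPM of 8 proximal tubule markers. Kif11 is higher to the right (r = 0.76), where the triangles lie lower.

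The make-up of the tissue differed between rats alongside these values. Of 10 marker lists compared with it, the 4 with the largest r are given. The S-phase mean had r of -0.79 with the proximal tubule marker mean (8 of 8 markers measured, none at 0 in any rat), 0.77 with lymphocyte markers (9 of 10), 0.69 with macrophage markers (8 of 8) and 0.69 with fibroblast markers (8 of 8). Without the 2 rats farthest from each marker median these were -0.74, 0.70, 0.53 and 0.68. The Spearman rho was -0.86, 0.70, 0.45 and 0.51 over all rats and -0.83, 0.62, 0.28 and 0.49 without those 2, so the macrophage relation was weak on ranks. Pearson's r in the library sets was -0.75 and -0.82 for proximal tubule and 0.89 and 0.70 for lymphocytes. For the mitotic mean the same 4 values were -0.50, 0.57, 0.36 and 0.49. Summed proximal tubule TPM ran from 878 to 2361 in the untreated rats, 876 to 3289 after i.p. ASC, 1234 to 3348 after i.v. ASC and 1783 to 2898 after CM. Summed lymphocyte TPM ran from 154 to 296, 135 to 373, 65.0 to 379 and 121 to 346 in the same order. All these values come from shares of the same reads, in which more of 1 cell type leaves less for another, and the part of the cell make-up in the division genes was not tested.

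Other genes of the same pathway, listed by role and not by how they moved, were read last. Of 90 such genes 81 were measured and tested (9 of entry, 33 of S phase and 39 of mitosis). None of them (0 of 81) passed the edgeR test after Benjamini-Hochberg adjustment in any comparison, and at an unadjusted p under 0.05 it found 3 after i.p. ASC (Pola1, Kifc1 and Melk), 3 after i.v. ASC (Kif15, Tk1 and Ccnd3) and 3 after CM (Melk, Kifc1 and Cdc25a), beside 3.89%, 8.81% and 6.6% of all genes. Their median log2 fold changes after i.p. ASC, i.v. ASC and CM were -0.01, 0.01 and 0.06 for S phase and 0.00, 0.07 and 0.01 for mitosis. The smallest p after i.p. ASC belonged to Pola1, the catalytic subunit of DNA polymerase alpha, with -0.29 (SE 0.12, edgeR adjusted p = 0.771). After i.v. ASC it belonged to Kif15, a mitotic kinesin that works beside Kif11, with -0.35 (SE 0.14, edgeR adjusted p = 0.523). After CM it belonged to Melk, a kinase of dividing cells, with 1.47 (SE 0.59, 95% interval 0.23 to 2.71, edgeR adjusted p = 0.711).

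Melk ranged from 1.74 to 4.55 TPM (median 2.70) in the untreated rats, from 2.25 to 11.4 (4.29) after i.p. ASC and from 2.01 to 10.6 (5.51) after i.v. ASC, and its CM values ran from 1.60 to 16.3 TPM. Its log2 fold changes of 1.15 after i.p. ASC and 1.07 after i.v. ASC had SEs of 0.55 and 0.55, and 1 i.p. ASC rat, 2 i.v. ASC rats and 1 CM rat lay below the untreated median. Melk varied with Kif11 (r = 0.79) and against the other mitotic members (r = -0.39). More of these genes varied with Kif11 and against the S-phase mean, among them Dut and Cdc25a of the S-phase list and Cenpn, Kifc1, Incenp and Stmn1 of the mitotic list. These genes, picked out after their values were seen, had r of at most -0.56 with the S-phase mean and of at least 0.75 with Kif11. Of the other S-phase and mitotic genes, 9.09% and 12.8% had r of -0.4 or less with the S-phase mean, beside 22.4% of all genes, and 9.09% and 15.4% had r of at least 0.7 with Kif11, beside 10.2% of all genes. Taken as whole lists, those just named included, r was 0.83 between the mean of the other S-phase genes and that of the S-phase members, and 0.91 between the corresponding mitotic means. Across the lists, the other S-phase genes followed the mitotic members nearly as closely (r = 0.81). The other mitotic genes had r of 0.59 with the S-phase members.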

How the data were processed

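Left-kidney RNA of 22 rats was sequenced. Per the labels, the authors used Trim Galore 0.6.4 and kallisto 0.4.6 with genome build rn6, and deposited estimated counts and TPM values per gene. Of the estimated counts 14.1% were not whole and were rounded. Of 17334 Entrez identifiers 17179 matched a symbol. The 4 groups were fitted together with edgeR 4.0.16 (R 4.3.3) by TMM scaling, filterByExpr and the quasi-likelihood test, with Benjamini-Hochberg adjustment over 12867 genes and a threshold of 0.05. List means used log2 CPM with a prior count of 2. Tests were two-sided. DESeq2 1.42.0, limma 3.58.1 on log2(TPM + 1) or log2(TPM + 0.1), sva 3.50.0 with 1 surrogate variable, other filters and leaving out each rat were alternatives. Scripts were tested on simulated data. Members and lists were chosen with earlier results of these data known. The rule for named genes covered a set of 23 by role, the 3 members with the smallest p in each comparison, and 1 other division gene in each. Further genes, such as Cenpa, Ttk, Nusap1, Aurka, Mcm3, Tk1, Kifc1 and Stmn1, were named outside this rule for their rank, r or p, after their values were seen. The labels give each rat as a separate animal. Totals of 12195682 to 14734772 counts limit precision most for the scarcest genes.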

Additional observations from a re-analysis of the deposited data

Results flagged for a closer look

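Within each group of 4 or 6 rats, the highest or lowest value was compared with its nearest neighbour over 116 group and measure combinations, and 8 stood apart by Dixon's criterion, which chance meets in about 1 of 20 groups. The combinations share rats and genes. After i.p. ASC, rat 7 was lowest in 4 of them. Its mitotic mean was 2.51 log2 CPM, with the other rats between 2.95 and 3.11. Its Cdk1 was 1.81 log2 CPM (others 2.73 to 2.92), its Plk1 1.32 (others 2.15 to 2.65) and its Rrm2 3.36 (others 4.16 to 4.60). After CM, rat 2 was lowest in Mcm5 at 2.74 log2 CPM (others 3.69 to 3.77) and in Cdt1 at 1.20 (others 2.16 to 2.31), and rat 11 was highest in E2f1 at 3.11 (others 2.28 to 2.41). After i.v. ASC, rat 14 was highest in Ccna2 at 2.95 log2 CPM (others 1.96 to 2.32).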

How the results depend on the processing

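In 68 recounts under other settings 0 members were called, and the smallest adjusted p of a member was 0.234. Of 75 fold changes of 25 named genes, 21 kept their sign in every setting. For i.p. ASC the median log2 fold change was -0.023 (G1) in the shorter library set, and -0.28 (G1) and -0.23 (S phase) in the longer one. For CM it was 0.072 (G1) and 0.24 (mitosis) in the shorter set, and -0.25 and -0.25 in the longer. The G1 median for CM ran from -0.15 to -0.0061 on leaving out 1 rat, with -0.15 without CM rat 11. With limma on TPM the G1 median for i.v. ASC was -0.15 (pseudocount 1) or -0.17 (pseudocount 0.1), where that of all genes was -0.12 or -0.13. The Mki67 difference for CM turned to -0.018 on log2(TPM + 1) and ran from -0.14 to 0.21 on leaving out 1 rat, being -0.03 without untreated rat 12, -0.14 without CM rat 11 and -0.05 without CM rat 19. The correlation of S-phase and mitotic means was 0.85 on log2(TPM + 1), and 0.73 to 0.80 on leaving out 1 rat. The cause of these shifts was not tested. Library sets, urothelial rats and Kif11 were left out or fitted only after the data were seen. No paired analysis was possible because the animal numbers are unique across groups.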
